A study of Mus musculus with 5 samples.

Results

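The long non-coding RNAs (lncRNAs) of 4 imprinted gene clusters were followed in mouse testis after oral triptolide, a diterpene of the vine Tripterygium wilfordii that is known to block transcription. Members were taken by position alone: lncRNA transcripts, and circular RNAs (circRNAs) by their start, in the Gnas interval (chromosome 2, 174.1 to 174.4 Mb), the Meg3 interval (chromosome 12, 109.4 to 109.85 Mb), the H19-Kcnq1ot1 interval (chromosome 7, 142.4 to 143.5 Mb) and the Airn interval (chromosome 17, from 12.4 Mb over Slc22a3, Igf2r and Airn). They came to 55 of 33057 lncRNA transcripts, at 20 of 16356 loci, and 5 of 11957 circRNAs. The triptolide group (3 libraries) were male C57BL/6J mice, 10 weeks old, given 50 µg of triptolide per kg by gavage every day. The control group (2 libraries) were mice of the same strain, sex and age given saline. Testes of both groups, each of 6 mice by the labels, were taken at 35 days. Whether a library is 1 animal or a pool is not stated. The spread behind every p-value is therefore that of the libraries, which may be technical.

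An imprinted gene is read from only the maternal or only the paternal copy, according to DNA methylation laid down in the germ line. Male germ cells erase and rebuild these marks, and imprinted clusters usually carry a lncRNA that acts on its neighbours in cis. Nespas runs antisense to Gnas, the gene of the stimulatory G protein alpha subunit, and comes from the paternal copy. H19, Meg3 and Mirg come from the maternal copy, and Kcnq1ot1 and Airn, long antisense RNAs that silence neighbours, from the paternal copy. No allele was distinguished in these values, so only the total level of each RNA is given.

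The lncRNA libraries held 1029547 (triptolide 3), 947298 (triptolide A) and 1058427 (triptolide B) expected counts, against 964886 (control 1) and 1071012 (control 2). Letters stand for columns whose header gives the group but no usable number, and they do not match between the lncRNA and circRNA tables. Levels are CPM, the count scaled to a sum of 1e+06 counts of the lncRNA table in that library. The implied average fragment length of the libraries was 260 ± 3.7 bases (SD, n = 3) in triptolide and 283 ± 8.1 bases (SD, n = 2) in control, without overlap. Its part in the results below was not tested. Germ-cell marker genes gave signal, with 38 circRNAs of meiotic prophase genes summing to 2163 to 2491 SRPBM (the deposited junction-read score) in triptolide and 2527 to 3128 in control. No circRNA came from the listed genes of Sertoli cells, peritubular and smooth muscle, endothelium, fat, epididymis or red blood cells. The locus antisense to Star, a Leydig cell gene, had 33.8 to 42.7 CPM in triptolide and 52.9 to 57.9 CPM in control, without overlap (adjusted p = 0.28 in edgeR). That antisense to Adipoq, a fat cell gene, had 104 to 267 CPM in triptolide and 197 to 204 CPM in control. The other fat cell locus, antisense to Fabp4, had 0 to 4.22 CPM in triptolide and 4.67 to 10.4 CPM in control. The 4 loci at elongating spermatid genes summed to 170 to 254 CPM in triptolide and 119 to 120 CPM in control. In edgeR 2 of them were called higher (adjusted p under 0.05), antisense to Smcp (0.010) and intronic to Gapdhs (0.027), and 0 lower. Of all loci tested, 5.01% were called higher. The 2 circRNAs of that list, from 1 of its 9 genes, summed to 52 to 86 SRPBM in triptolide and 290 to 703 SRPBM in control. Only 1 of these could be tested, and 0 were called.

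The clusters differed in strand and class. All 15 transcripts of the Gnas interval lay on the minus strand, and 11 were antisense, 2 intronic and 2 intergenic. In the Meg3 interval 7 of 8 transcripts were on the plus strand, and all 8 were intergenic. The H19-Kcnq1ot1 interval held 29 transcripts, 22 on the minus strand and 7 on the plus strand, of which 13 were intronic, 11 antisense and 5 intergenic. In the Airn interval the 3 transcripts were antisense, on the plus strand and not listed as known. In all, the authors listed 39 members as known and 16 as not known, and 6 were at 0 in all 5 libraries. No lncRNA locus carried the symbol Meg3, Rian, Kcnq1ot1 or Airn, so these RNAs could not be analysed as lncRNA loci.

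No member locus passed the test between triptolide and control. Of the 20 loci, 12 had enough counts to be tested, and 0 had an adjusted p under 0.05 in edgeR's quasi-likelihood test, against 7.27% of the 6888 lncRNA loci tested. At an unadjusted p under 0.05 there were 3 of the 12, beside 21.7% of all loci tested. DESeq2 and limma also called 0 of the members, though DESeq2 gave no adjusted p for H19 and XLOC_169488. The groups did not overlap, with triptolide higher, at 1 of the 12 (19.7% of all loci tested) and, with triptolide lower, at 2 (18.3% of all). The median log2 fold change was -0.29 over the 12 and 0.00 over all loci tested, with 4 estimates above 0 and 8 below. With triptolide B left out, 3 members had an adjusted p under 0.05, against 8.91% of the 6601 loci then tested. These were the Nespas/Gnas locus, XLOC_039406 and 4933417O13Rik. The loci not tested, 8 in number, had at most 12 counts in any library. They were Igf2os, Tspan32os, B830012L14Rik, Gm26906 (0 in all 5 libraries), XLOC_116899, XLOC_116903, XLOC_039319 and XLOC_175980. All members together held 0.226%, 0.196% and 0.152% of the lncRNA counts in triptolide 3, A and B, against 0.186% and 0.161% in control 1 and 2. In bulk tissue, a change in the number of cells of a type and a change in RNA per cell cannot be told apart.

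**Figure D1:**
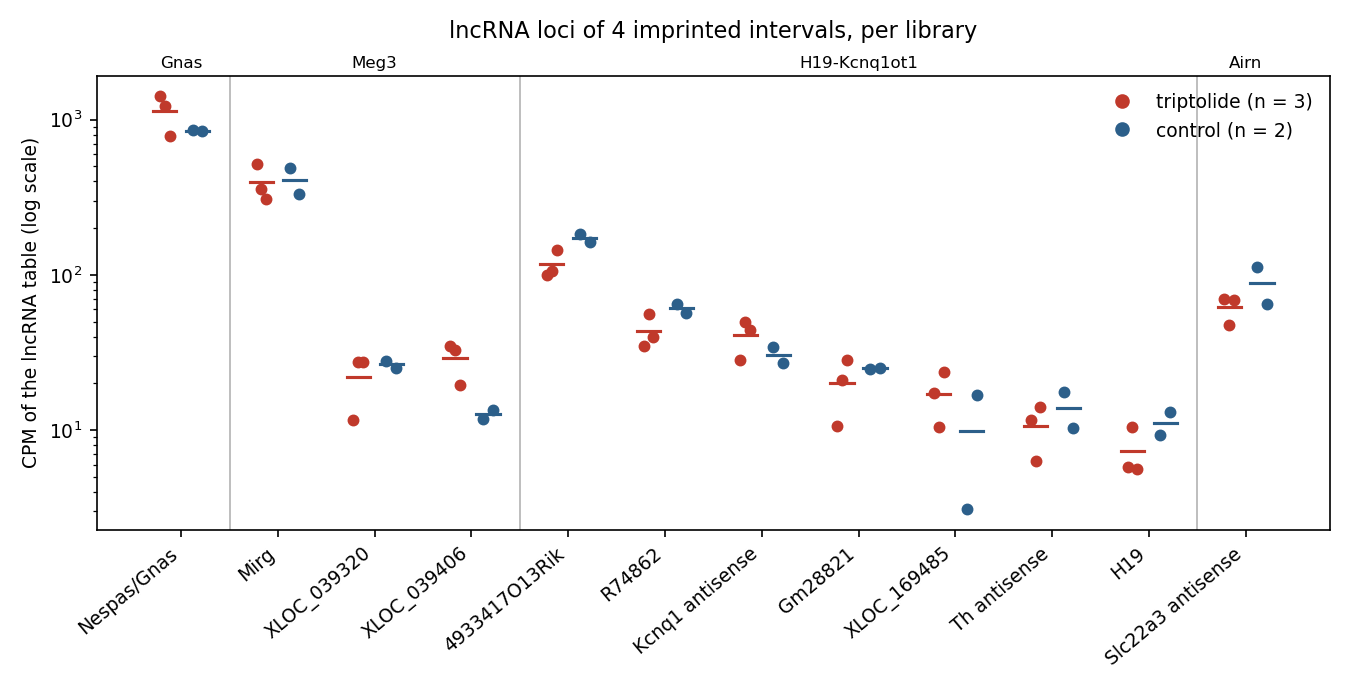
Level of the 12 tested lncRNA loci of the 4 imprinted intervals in CPM (log axis), each library a point and the group mean a bar, triptolide in red and control in blue. The Nespas/Gnas locus stood highest in every library, between 789 and 1409 CPM, and the groups were apart at XLOC_039406, 4933417O13Rik and R74862.

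Summed per interval, the Gnas cluster gave 1409, 1221 and 791 CPM in triptolide 3, A and B, against 866 and 849 CPM in control 1 and 2. The ratio of means was 1.33 (two-sided exact permutation p = 0.4; 0.533 adjusted over the 4 intervals), and triptolide B lay below both controls. The Meg3 cluster gave 566, 420 and 360 CPM in triptolide, against 537 and 372 CPM in control (ratio 0.987, exact p = 0.9, adjusted 0.9). The ranges of the groups overlapped almost fully. The H19-Kcnq1ot1 cluster gave 213, 271 and 304 CPM in triptolide, against 345 and 319 CPM in control. Each triptolide library was below each control library, at a ratio of 0.791 (exact p = 0.2, adjusted 0.533). Without 4933417O13Rik, the most abundant locus of that cluster, the log2 ratio moved from -0.34 to -0.13 (exact permutation p = 0.9). The Airn interval gave 69.9, 47.5 and 69.0 CPM in triptolide, against 113 and 65.3 CPM in control, with a ratio of 0.697 (exact p = 0.4, adjusted 0.533). The smallest p that 3 against 2 libraries allow is 0.1. A single locus carried most of each sum but that of H19-Kcnq1ot1: XLOC_116905 held 99.6% of the Gnas sum, Mirg 88.7% of the Meg3 sum and the Slc22a3 antisense locus 100% of the Airn sum, whereas 4933417O13Rik held 47.9% of its own.

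The Nespas/Gnas locus XLOC_116905 (chromosome 2, 174267655 to 174295436, minus strand) was the most abundant member by count. Its 13 transcripts are antisense or intronic to Gnas, and carry the symbol Nespas or Gnas in the deposited table. The locus had 1409, 1221 and 789 CPM in triptolide 3, A and B, against 850 and 847 CPM in control 1 and 2. Both controls fell within the triptolide range, and triptolide B was the lowest of all 5 libraries. The log2 fold change was 0.43 ± 0.20 (SE), and edgeR's quasi-likelihood test gave adjusted p = 0.21 (0.015 to 0.60 over the alternatives). Leaving out triptolide B gave a log2 fold change of 0.67 with adjusted p = 0.015, and leaving out triptolide 3 gave 0.24. The sources used here do not give the strand setting of the counting. Reads of this locus and of Gnas itself therefore cannot be told apart for certain, and the same holds for every antisense or intronic locus below.

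Within that locus, the 3 transcripts with 2 exons stood higher in triptolide. TCONS_00193103 (intronic, not listed as known, 174287896 to 174293947) had 303, 239 and 144 CPM in triptolide 3, A and B, against 91.7 and 110 CPM in control 1 and 2. The groups did not overlap. Its log2 fold change was 1.19 ± 0.37, and edgeR's quasi-likelihood test gave an adjusted p = 0.40. TCONS_00193104 had 52.3, 70.6 and 37.3 CPM in triptolide, against 14.4 and 19.8 CPM in control (log2 fold change 1.64 ± 0.45, adjusted p = 0.34 in edgeR). TCONS_00193102 had 40.4, 45.8 and 30.5 CPM in triptolide, against 10.3 and 16.6 CPM in control (log2 fold change 1.51 ± 0.46, adjusted p = 0.39 in edgeR). All 3 were higher in each triptolide library than in either control library, and none passed the adjusted threshold.

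Other transcripts of the locus lay on either side. TCONS_00193092, with 3 exons, had 123, 89.7 and 84.5 CPM in triptolide, against 83.1 and 18.9 CPM in control. It too was without overlap, though triptolide B and control 1 were close. The most abundant transcript did not separate the groups. TCONS_00193091 had 739, 552 and 338 CPM in triptolide, against 447 and 480 CPM in control. TCONS_00193099, a 5-exon transcript, stood the other way, at 0, 53.8 and 39.1 CPM in triptolide, against 90.6 and 78.5 CPM in control. Expected counts divide the reads of overlapping transcripts by estimation, and 6 of the 13 transcripts were listed at 0 in at least 1 library, so a single transcript's 0 need not mean that it was absent.

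**Figure D2:**
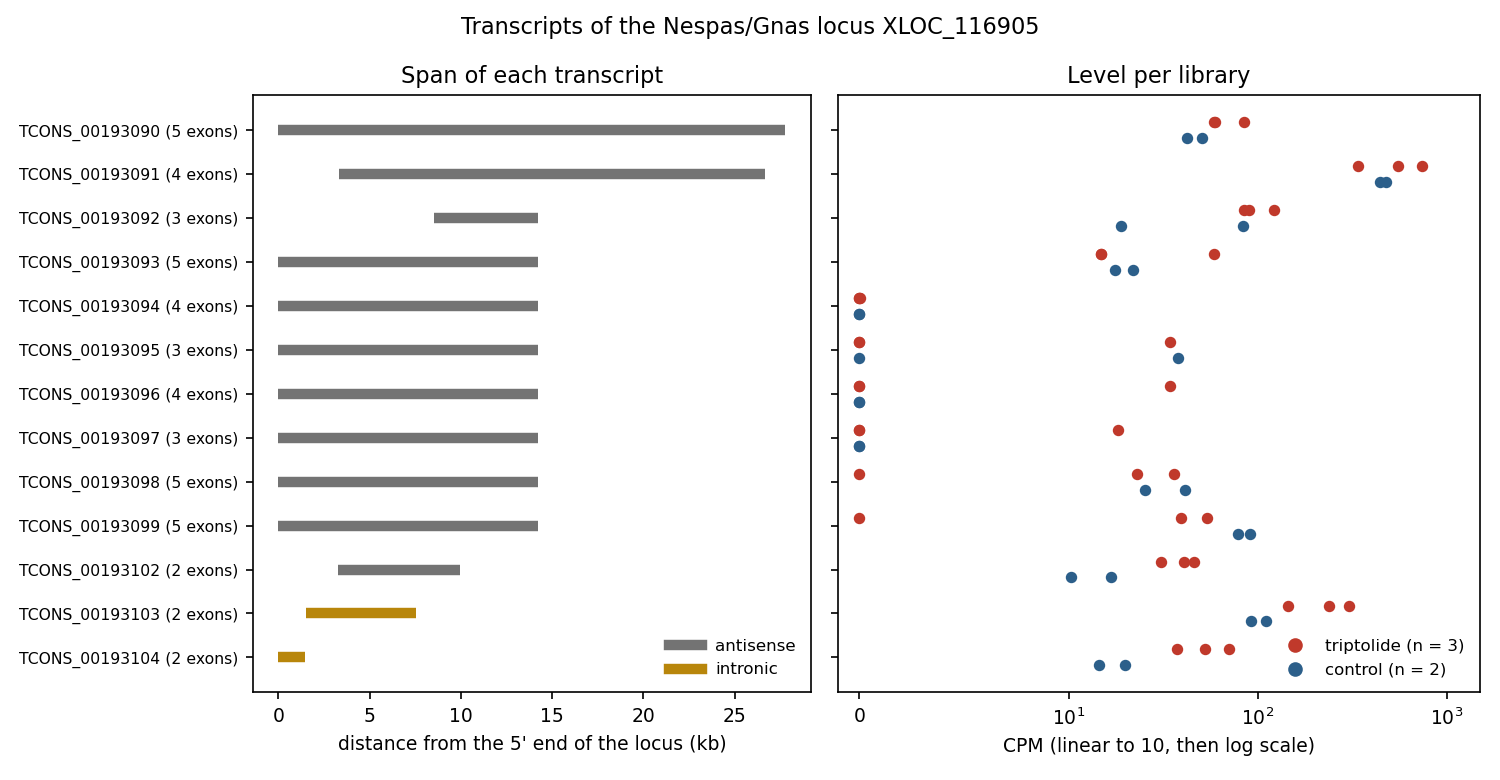
The 13 transcripts of XLOC_116905: left, the span of each from the 5' end of the locus (kb, introns included, gray antisense and gold intronic); right, its level per library in CPM (linear to 10, then log), triptolide in red above control in blue. The 3 transcripts with 2 exons, at the bottom, have every triptolide point to the right of both control points, as do TCONS_00193090 and TCONS_00193092 at the top.

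As shares of the locus count, which do not depend on its total, TCONS_00193103 made up 21.5%, 19.6% and 18.3% in triptolide 3, A and B, against 10.8% and 12.99% in control 1 and 2. That is 19.8% ± 1.6 (SD, n = 3) in triptolide and 11.9% ± 1.6 (SD, n = 2) in control, with exact permutation p = 0.1 (0.25 adjusted over the 10 transcripts compared). Here triptolide B lay with the other triptolide libraries. TCONS_00193104 made up 4.74% ± 1.04 (SD, n = 3) in triptolide and 2.02% ± 0.46 (SD, n = 2) in control. TCONS_00193102 made up 3.50% ± 0.55 (SD, n = 3) in triptolide and 1.58% ± 0.53 (SD, n = 2) in control. TCONS_00193099 made up 0%, 4.41% and 4.96% in triptolide, against 10.7% and 9.27% in control. These 3 shares also had exact permutation p = 0.1 (adjusted 0.25), the smallest possible. Shares of the same locus add up to a whole, so these separations are not independent of each other. Such shares were not tested at other loci. The other 6 had exact p of 0.2 to 1 before adjustment. TCONS_00193091 held 52.4%, 45.2% and 42.9% in triptolide, against 52.5% and 56.7% in control, with the nearest values of the groups almost touching (exact p = 0.2).

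Grouped by structure, a grouping chosen after the values were seen and so given with no test, the 3 transcripts of 2 exons summed to 396, 355 and 212 CPM in triptolide, against 116 and 146 CPM in control. Their share was 28.1%, 29.1% and 26.9% in triptolide, against 13.7% and 17.3% in control. The 7 transcripts that share 1 start and end (174281237 to 174295436) summed to 92.7, 139 and 95.01 CPM in triptolide, against 154 and 159 CPM in control. The 2 that extend beyond that span at its 3' side, TCONS_00193090 and TCONS_00193091, summed to 798, 637 and 397 CPM in triptolide, against 497 and 523 CPM in control.

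**Figure D3:**
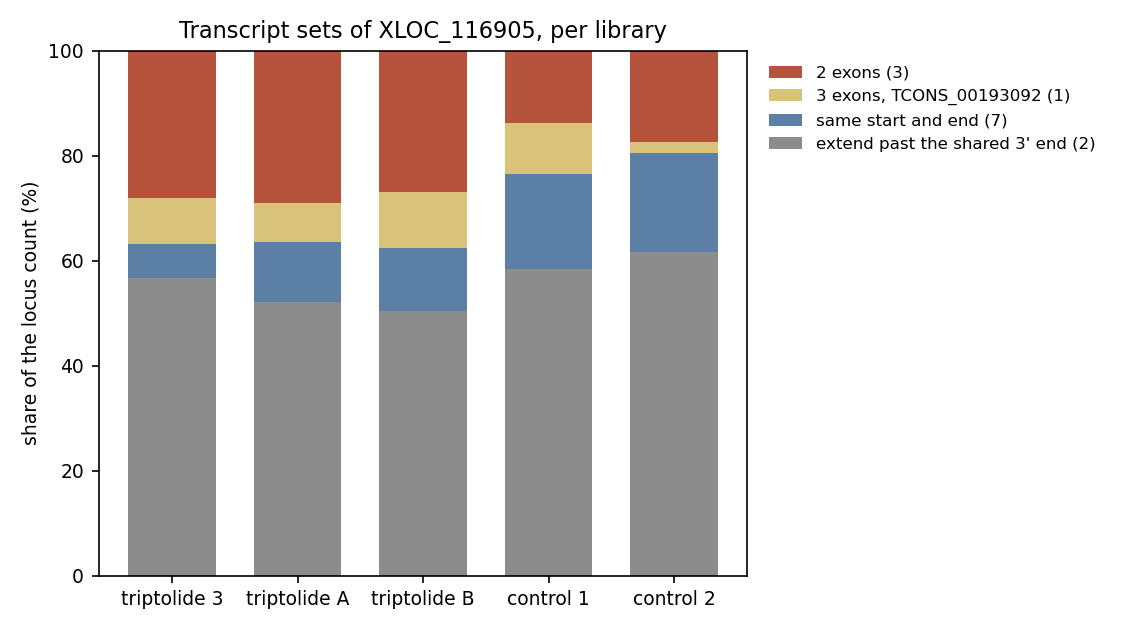
Share of the XLOC_116905 count (%) in 4 transcript sets, stacked per library, triptolide 3, A and B left of control 1 and 2, with the number of transcripts of each set in parentheses. The 2-exon set takes 26.9% to 29.1% in triptolide and 13.7% to 17.3% in control.

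The sets also differ in what they cross. RefSeq (GRCm38.p6) places a start of Gnas on the plus strand. Its window of 250 bases before to 50 after that start lies inside the span, introns included, of 10 of the 13 transcripts. Whether their exons hold the window was not determined. The 3 that do not span it are TCONS_00193102, TCONS_00193103 and TCONS_00193104. Which transcript of Gnas begins at that start was not determined, and it need not be the one encoding the stimulatory G protein alpha subunit. The window is printed because it separates the 3 transcripts that do not span it from the rest. Its capitals mark each CG, the dinucleotide whose cytosine carries imprint methylation; CG reads the same on both strands.
Gnas chr2:174284070-174284369, plus strand: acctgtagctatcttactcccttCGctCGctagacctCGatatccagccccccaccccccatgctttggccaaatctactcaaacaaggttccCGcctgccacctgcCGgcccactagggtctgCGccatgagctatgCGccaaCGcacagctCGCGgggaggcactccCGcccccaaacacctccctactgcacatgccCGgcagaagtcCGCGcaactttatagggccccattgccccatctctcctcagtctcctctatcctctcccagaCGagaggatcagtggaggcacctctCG
It holds 16 CG, where the median of 32851 RefSeq promoter windows of the same length is 7, and 67.0% of them have fewer; 94.6% have at least 1. Methylation was not measured in these samples.

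At its 3' end TCONS_00193090, the transcript with the widest span (introns included), stops 70 bases short of the Mir298 hairpin and 530 bases short of Mir296. Both hairpins are on the same strand. At TCONS_00193090 the level was 58.9, 84.4 and 59.1 CPM in triptolide, against 50.8 and 42.2 CPM in control, without overlap. The mature miRNAs are shown because Mir298 and Mir296 lie near that 3' end, and Mir3072 lies 4 bases from TCONS_00068564, the main Mirg transcript. Other hairpins, Mir410 among them, also lie within the span of the Mirg locus and are not printed. Capitals mark the seed, bases 2 to 8 (RefSeq, GRCm38.p6).
mmu-miR-298-5p: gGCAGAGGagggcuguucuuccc
mmu-miR-298-3p: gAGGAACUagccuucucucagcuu
mmu-miR-296-5p: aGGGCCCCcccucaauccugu
mmu-miR-296-3p: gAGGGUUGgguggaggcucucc
mmu-miR-3072-5p: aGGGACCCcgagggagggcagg
mmu-miR-3072-3p: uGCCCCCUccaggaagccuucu
No 2 of the 6 share a seed. None of the 3 hairpins lies within a member transcript, and miRNAs themselves were not measured.

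Mirg (chromosome 12, 109729765 to 109749458, plus strand, intergenic, known), a host of many miRNAs downstream of Meg3, was the second most abundant member by count. It had 519, 358 and 308 CPM in triptolide, against 486 and 331 CPM in control. The libraries of the groups interleaved, with a log2 fold change of -0.04 ± 0.21 and a 95% interval of -0.48 to 0.40 (adjusted p = 0.94, edgeR quasi-likelihood). Nearly all of it was TCONS_00068564, at 519, 357 and 303 CPM in triptolide, against 486 and 327 CPM in control, which starts 4 bases past the Mir3072 hairpin. The upstream Mirg transcript, TCONS_00068535, stayed under 5 CPM in every library.

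Per length, Mirg stood above Nespas. The authors' FPKM were used for the 3 libraries whose FPKM and count columns carry the same name. Summed over a locus, Mirg had 1179 FPKM in triptolide 3, against 1180 and 780 FPKM in control 1 and 2. XLOC_116905 had 290 FPKM in triptolide 3, against 196 and 177 FPKM in control. In each of these libraries the per-length level of Mirg was above that of XLOC_116905, the reverse of the order of their CPM. The per-length levels of XLOC_039406, next on the chromosome, were 140 FPKM in triptolide 3, against 53.6 and 58.6 FPKM in control. That of 4933417O13Rik was 66.5 FPKM in triptolide 3, against 130 and 119 FPKM in control.

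XLOC_039406 (chromosome 12, 109822793 to 109831683, plus strand, intergenic, not listed as known) lies distal to Mirg. It carries no symbol as deposited but overlaps Gm9661 in RefSeq. It was the tested locus with the highest fitted fold among those whose groups were apart. It had 34.7, 33.0 and 19.5 CPM in triptolide 3, A and B, against 11.9 and 13.6 CPM in control 1 and 2. Each triptolide library exceeded both controls. The log2 fold change was 1.19 ± 0.43 (adjusted p = 0.089, edgeR quasi-likelihood, 0.040 to 0.37 over the alternatives, with the lowest without triptolide B). Its neighbour at the other end of the interval, XLOC_039320, which lies before the paternally expressed gene Dlk1, had 11.7, 27.4 and 27.4 CPM in triptolide, against 28.0 and 25.2 CPM in control (log2 fold change -0.26 ± 0.40). Triptolide 3 alone was low there.

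H19 (chromosome 7, 142575634 to 142576538, minus strand, intergenic, known), an RNA abundant in the fetus and mostly silent after birth, was among the lowest of the tested loci. It had 6, 10 and 6 counts in triptolide, against 9 and 14 counts in control, or 5.83, 10.6 and 5.67 CPM against 9.33 and 13.1 CPM. The groups overlapped, and the log2 fold change was -0.61 ± 0.66 with a 95% interval of -1.96 to 0.73 (adjusted p = 0.65, edgeR quasi-likelihood). Without control 2 the estimate was -0.31. Igf2os, antisense to the growth factor gene Igf2, was lower still, at 4, 1 and 3 counts in triptolide and 1 and 5 counts in control, and could not be tested. Tspan32os had 0, 0 and 0 counts in triptolide, against 5 and 1 counts in control, too few for a test.

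4933417O13Rik (chromosome 7, 143322773 to 143332225, minus strand, intronic, known) lies inside Kcnq1, a potassium channel gene of the cluster, 26226 bases from Kcnq1ot1 in RefSeq. It had 100, 107 and 144 CPM in triptolide 3, A and B, against 182 and 163 CPM in control 1 and 2. Every triptolide library was below both controls. The log2 fold change was -0.56 ± 0.21 (adjusted p = 0.11, edgeR quasi-likelihood, 0.042 to 0.39 over the alternatives, with the lowest without triptolide B).

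The transcripts of 4933417O13Rik differed in direction. TCONS_00298223, with 2 exons, had 37.2, 42.0 and 40.3 CPM in triptolide, against 20.7 and 10.0 CPM in control. It was higher in each triptolide library, with a log2 fold change of 1.38 ± 0.44 (adjusted p = 0.41 in edgeR). TCONS_00298221, with 3 exons and an almost equal span, had 33.0, 10.7 and 54.6 CPM in triptolide, against 90.9 and 67.9 CPM in control. TCONS_00298224 had 15.6, 15.8 and 31.2 CPM in triptolide, against 33.2 and 73.6 CPM in control. TCONS_00298220 had 0, 0 and 9.33 CPM in triptolide, against 37.6 and 11.9 CPM in control. These 3 were lower in each triptolide library, and none passed the adjusted threshold. TCONS_00298222 was listed at 14.3, 38.1 and 0 CPM in triptolide and at 0 in both controls. The share of TCONS_00298223 in its locus was 37.2%, 39.4% and 28.1% in triptolide, against 11.4% and 6.12% in control, given as a description of a transcript picked after its values were seen.

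**Figure D4:**
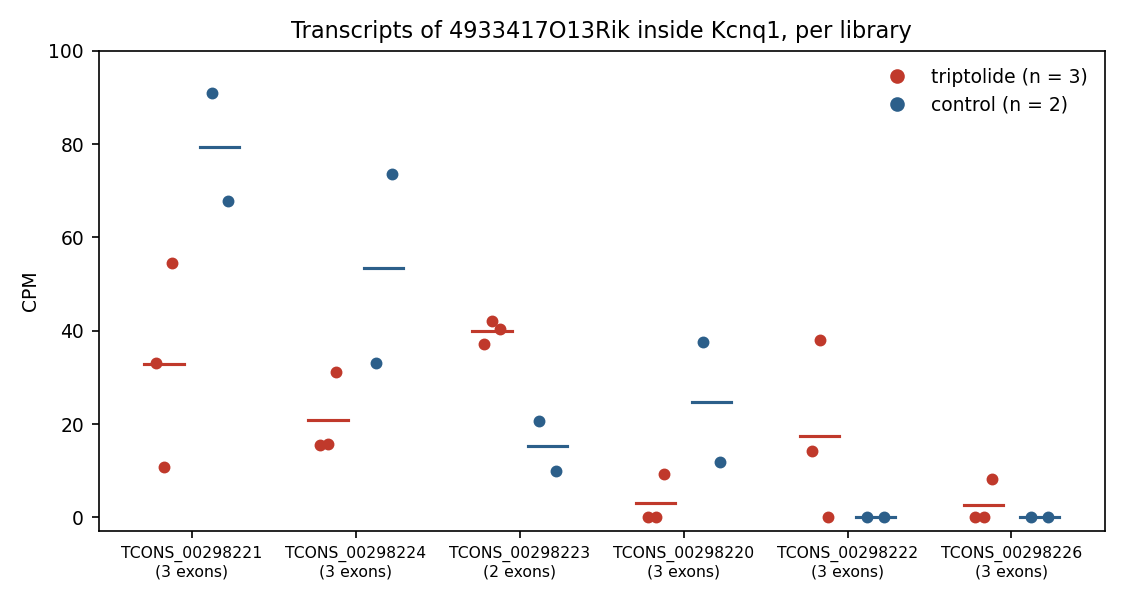
Level of the 6 transcripts of 4933417O13Rik in CPM, each library a point and the group mean a bar, triptolide left of control. TCONS_00298223 lies at 37.2 to 42.0 CPM in triptolide and 10.0 to 20.7 CPM in control, while TCONS_00298221, TCONS_00298224 and TCONS_00298220 lie lower in triptolide.

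The other loci of the H19-Kcnq1ot1 interval were low and, but for R74862, overlapped between the groups. R74862, antisense to or beside the tetraspanin gene Cd81, had 35.0, 56.0 and 39.7 CPM in triptolide, against 65.3 and 57.0 CPM in control (log2 fold change -0.49 ± 0.29, adjusted p = 0.34 in edgeR). Each triptolide library was below both controls, and triptolide A came close to control 2. Gm28821, also inside Kcnq1, had 10.7, 21.1 and 28.3 CPM in triptolide, against 24.9 and 25.2 CPM in control. XLOC_175978, antisense to Kcnq1, had 28.2, 49.6 and 44.4 CPM in triptolide, against 34.2 and 27.1 CPM in control, with an estimate above 0 (log2 fold change 0.41 ± 0.34, and 0.24 without triptolide A). XLOC_169488, antisense to Th, the gene of tyrosine hydroxylase, had 11.7, 6.33 and 14.2 CPM in triptolide, against 17.6 and 10.3 CPM in control. XLOC_169485, intergenic and not listed as known, had 17.5, 10.6 and 23.6 CPM in triptolide, against 3.11 and 16.8 CPM in control (log2 fold change 0.75 ± 0.58). Its log2 fold change was 2.47 without control 2 and 0.02 without control 1.

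In the Airn interval the lncRNA was XLOC_083053 (chromosome 17, 12420883 to 12424790, plus strand), antisense to Slc22a3, an organic cation transporter gene that Airn silences in mouse placenta. It had 69.9, 47.5 and 69.0 CPM in triptolide, against 113 and 65.3 CPM in control. The groups overlapped, since control 2 lay inside the triptolide range, and the log2 fold change was -0.51 ± 0.27 (adjusted p = 0.28, edgeR quasi-likelihood). Without control 1 the estimate was -0.09, and without control 2 it was -0.82. The most abundant of its 3 transcripts, TCONS_00134378, had 62.2, 37.8 and 53.1 CPM in triptolide, against 76.2 and 40.3 CPM in control, with overlap. The other 2 kept the groups apart, with triptolide lower, as did 14.9% of all transcripts tested. TCONS_00134379 had 5.84, 9.67 and 9.64 CPM in triptolide, against 17.3 and 18.7 CPM in control (adjusted p = 0.58 in edgeR). TCONS_00134380 had 1.86, 0 and 6.21 CPM in triptolide, against 19.4 and 6.35 CPM in control, with the nearest values almost touching. It had too few counts for a test.

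**Figure D5:**
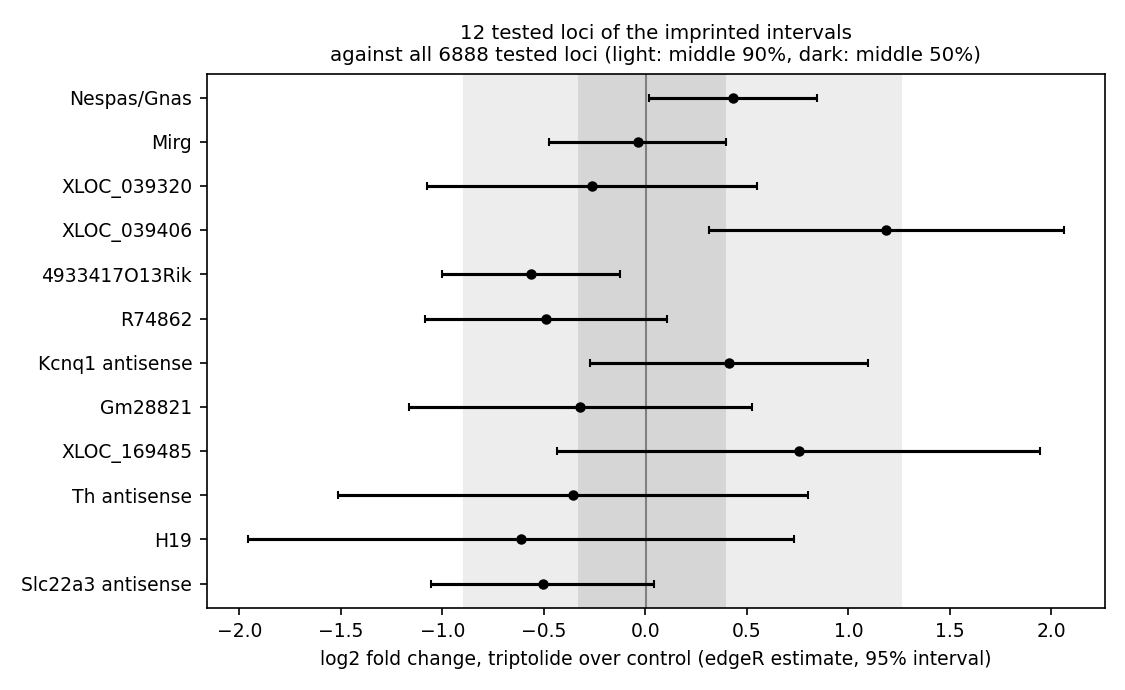
Log2 fold change (triptolide over control) of the 12 tested loci with unadjusted 95% intervals, by interval, against the middle 90% (light) and 50% (dark) of all 6888 lncRNA loci tested. The intervals of XLOC_116905, XLOC_039406 and 4933417O13Rik leave out 0, and all 12 estimates lie within the middle 90% of all loci, -0.89 to 1.26.

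Tested singly, 29 of the 55 transcripts had enough counts, and 0 had an adjusted p under 0.05 in edgeR's quasi-likelihood test, as for all 13534 transcripts tested (0%). At an unadjusted p under 0.05 there were 5 (17.2%, against 9.89% of all transcripts). All 5 belong to XLOC_116905 or 4933417O13Rik, whose overlapping transcripts divide their reads by estimation, so they are not independent of each other. The groups did not overlap at 7 with triptolide higher and 7 with triptolide lower, or 24.1% each, against 15.8% and 14.9% of all transcripts tested. Over the whole table, DESeq2 called 260 transcripts and limma 3 where edgeR called 0.

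The 5 circRNAs gave little signal. The one with most reads (chromosome 7, 142761339 to 142764062, no host symbol) had 105, 212 and 104 SRPBM in triptolide A, B and C, against 70 and 107 SRPBM in control 1 and 2. The groups overlapped, with a log2 fold change of 0.54 ± 0.46 on log2(SRPBM + 16) and adjusted p = 0.79 in limma. The estimate was 0.23 without triptolide B and 0.28 without control 1. Another circRNA with the same end (142735257 to 142764062) had 47, 35 and 26 SRPBM in triptolide, against 70 and 0 in control. In RefSeq, the shorter of these lies 3456 bases from Gm7290 and overlaps no gene, and the longer overlaps Gm39116 and Gm7290. Only these 2 could be tested; 0 of 2 were called, as for all 5457 circRNAs tested by limma (0%), and 0 had an unadjusted p under 0.05, against 6.6% of all. The other 3 were listed above 0 in a single library each. These were 1 more circRNA with that end (17 SRPBM, triptolide C), 1 of R74862 (17 SRPBM, control 1) and 1 of Airn (chromosome 17, 12795703 to 12808922; 34 SRPBM, triptolide C). With 1 read worth 8.25 to 9.49 SRPBM, those values are 2 to 4 reads.

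Genes that keep or share imprints were read from fixed lists. Of 35 imprinted genes of the 4 clusters, 8 loci carried a symbol, 7 were tested and 0 were called. Of 48 imprinted genes elsewhere, 7 of 16 loci were tested, and 1 rose and 0 fell. The riser, antisense to the inositol phosphatase gene Inpp5f, had 16, 6 and 12 counts in triptolide, against 1 and 1 counts in control (adjusted p = 0.036, edgeR quasi-likelihood). The ratio of summed CPM was 11.4, with an exact 95% counting interval of 2.92 to 98.0. That interval pools the reads of each group and leaves out the spread between libraries. The call was lost without control 1 (adjusted p = 0.20 in edgeR) and without control 2 (adjusted p = 0.17 in edgeR), and limma gave adjusted p = 0.075. Of 24 imprint regulator genes, 4 of 6 loci were tested, and 1 rose and 0 fell. This was the locus antisense to Zfp57, whose zinc finger protein keeps methylation at imprints in the mouse embryo, at 258, 203 and 126 CPM in triptolide, against 76.6 and 62.1 CPM in control. Every triptolide library exceeded both controls, with a log2 fold change of 1.50 (adjusted p = 5.9e-04 in edgeR; 0.014 at most when any library was left out). Of all loci tested, 5.01% rose and 2.26% fell. The same lists held 12, 30 and 60 circRNAs, with 5, 17 and 24 tested and 0 called.

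The loci outside the intervals whose pattern was most like that of XLOC_116905 over the 5 libraries were XLOC_168876 on chromosome 7, XLOC_061730 at the DNA repair gene Ercc6 and XLOC_067630 on chromosome 15. Their root mean square differences from it, on centred log2(CPM + 1), were 0.042, 0.047 and 0.066, beside a median of 0.43 over the 2881 loci compared. XLOC_061730 had 720, 646 and 443 CPM in triptolide 3, A and B, against 468 and 460 CPM in control 1 and 2. As at XLOC_116905, triptolide B lay just below the controls and the other triptolide libraries above them.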

How the data were processed

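RNA-seq tables of mouse testis, 3 triptolide and 2 control libraries, were used as deposited. The libraries were strand-specific and depleted of ribosomal RNA, per the labels' protocols. HISAT2 2.0.1, bedtools 2.17.0, HTSeq 0.6.1 and DESeq are named in the submitters' processing notes without a role, with hg19, a human build. The coordinates are printed as deposited; 9709 of 9796 circRNAs (99.1%) lay inside their host gene in the RefSeq GRCm38.p6 table, which served for names, neighbours and sequences only. The authors deposited expected counts and FPKM per lncRNA transcript, per the file headers, and a whole-number circRNA score, SRPBM by its name. The mRNA table's expected counts and FPKM, also deposited, gave only the fragment length: a line through transcripts of 800 to 20000 bases with FPKM over 20. No source used here says what an exact 0 stands for.

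Some headers repeat: 2 lncRNA count columns are named for triptolide replicate 2, and 3 circRNA columns for triptolide replicate 1. They entered as triptolide libraries with letters in place of numbers. The lncRNA FPKM columns of triptolide 1 and 2 (2 columns) were left out: the name of the first matches no count column, and that of the other matches 2.

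Expected counts were summed per locus, rounded and compared, triptolide over control, by the quasi-likelihood test of edgeR 4.0.16 under R 4.3.3 (TMM scaling, genes kept by filterByExpr), with Benjamini-Hochberg adjustment over all loci at 0.05. Transcripts were tested likewise. Standard errors come from the F statistic, and 95% intervals use its degrees of freedom. For circRNAs above 0 in 2 or more libraries, limma-trend (3.58.1) used log2(SRPBM + 16), a scale that understates changes of low values. Interval sums and isoform shares had two-sided exact permutation tests over 10 assignments. DESeq2 1.42.0, limma on log2 CPM, other scalings and filters, and leaving out each library were alternatives. The tests were also run on simulated data with assumed spreads and changes larger than most of those fitted here. Those runs do not show how the tests perform on the members.

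Named were XLOC_116905 and its transcripts with a mean of at least 10 counts; per interval, loci of the imprinted list, the 5 highest by mean CPM and any past the threshold; up to 5 circRNAs each; the 3 loci most like XLOC_116905 with a mean of at least 50 CPM; and the gene lists. Single transcripts of other loci were named after their values were seen. Members and lists were chosen with earlier results of these data known.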

Additional observations from a re-analysis of the deposited data

How the results depend on the processing

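No member locus was called in the main test or in any alternative but 1: without triptolide B, 3 were, and over leaving out each library the count ran from 0 to 3. The whole lncRNA table gave 501 called loci, 261 with DESeq2, and 269 to 588 when a library was left out. No paired analysis was possible because the count columns carry no number that both groups share for 2 or more pairs. Single transcripts went from 0 called to 39 with no filter, 260 with DESeq2 and 3 with limma. circRNAs went from 0 to 1 where all 5 libraries had to be above 0, to 36 with no filter, and to between 0 and 130 when a library was left out (130 without control 2). Log2 ratios of interval sums turned for Gnas without XLOC_116905 (-3.79, on a few counts) and for Meg3 without Mirg (0.21), where the sum of all loci had -0.02. Leaving out a library gave -0.26 to 0.27 for Meg3, 0.23 to 0.62 for Gnas, -0.46 to -0.21 for H19-Kcnq1ot1 and -0.86 to -0.07 for Airn, and Meg3 turned to 0.03, 0.12 and 0.27 when triptolide A, triptolide B or control 1 was left out. Share differences (percentage points) ran from -0.86 to 6.68 for TCONS_00193092, -0.77 to 0.70 for TCONS_00193093 (-0.15 without control 2) and -3.51 to 0.94 for TCONS_00193095, and those of the other 7 transcripts kept their sign. Among single items, leaving out a library turned the log2 fold changes of Mirg (-0.30 to 0.24, with 0.02, 0.14 and 0.24 where triptolide A, triptolide B or control 1 was dropped), XLOC_039320 (0.033 without triptolide 3), XLOC_169488 (-0.66 to 0.047, the upper one without control 1) and the circRNA from 142735257 to 142764062 (-0.75 without control 2, to 1.68). The causes were not tested. What depth alone limits was not tested.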
